A study of Mus musculus with 18 samples.

Results

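The genes described here are the ligands and receptors of stromal fibroblast growth factor (FGF) and hepatocyte growth factor (HGF) signaling in cultured mammary normal fibroblasts (NFs). They are the rows of the gene count table whose gene symbol is Fgf1, Fgf2, Fgf7, Fgf10, Fgf18, Fgfr1, Fgfr2, Hgf or Met, and all 9 were present among the 55486 genes of the table. RNA of 18 cultures was sequenced. The NFs came from mammary glands of adult female FVB/n mice, pooled over several animals for each sort, and were sorted as negative for epithelial, immune and endothelial surface markers and then by CD26, the surface peptidase encoded by Dpp4. They were passaged on collagen in serum-containing medium before use. CD26- NFs were kept for 7 days in control medium (n = 3) or in tumor conditioned medium (CM; n = 6), and CD26+ NFs likewise in control medium (n = 3) or in tumor CM (n = 6). The CM came from 6 WEPtn tumor lines, named 13-MCB-17, 10-SJK-221, 18-MCB-12, 13-MCB-44, 13-MCB-90 and 13-MCB-138, and each line supplied 1 CD26- culture and 1 CD26+ culture. WEPtn is a mouse model of E-cadherin-deficient invasive lobular carcinoma, in which the whey acidic protein promoter drives Cre in mammary epithelium. What the control medium contained is not given in the sources used here. The labels do not say whether the 3 control libraries of a cell type were separate isolations, so the p-values measure the spread between these libraries, which may be technical.

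FGFs are secreted proteins that bind heparan sulfate on cell surfaces and signal through receptor tyrosine kinases, with the Ras-ERK cascade as a main output. Fgf7 and Fgf10 are made by mesenchyme and act on the epithelial splice form of Fgfr2, whereas Fgf1 and Fgf2 lack a classical signal peptide and reach several receptors, and Fgf18 acts mainly on the mesenchymal receptor forms. HGF is released by fibroblasts as an inactive precursor, is cut by serine proteases and binds MET, which epithelial cells carry. In the mammary gland both systems are known as routes by which stroma drives ductal growth and branching.

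The 250 bases before the RefSeq transcript start are shown for the 3 ligand genes called higher with CM in CD26- NFs, Fgf7, Fgf10 and Hgf, and for Met, the receptor gene that differed most between CD26- and CD26+ NFs. They are RefSeq sequences of GRCm38.p6, on the plus strand of each chromosome, which is the strand of all 4 genes. The Fgf7 window is chr2:126034408-126034657, that of Fgf10 is chr13:118714449-118714698, that of Hgf is chr5:16553245-16553494 and that of Met is chr6:17463707-17463956. Capitals mark matches on either strand to any of 7 short motifs, namely a TATA box (TATAAA), a GC box (GGGCGG), an AP-1 site (TGANTCA), a CRE (TGACGTCA), a GAS element (TTCNNNGAA), a C/EBP site (TTGCNNAA) and a TEAD site (GGAATG).
Fgf7: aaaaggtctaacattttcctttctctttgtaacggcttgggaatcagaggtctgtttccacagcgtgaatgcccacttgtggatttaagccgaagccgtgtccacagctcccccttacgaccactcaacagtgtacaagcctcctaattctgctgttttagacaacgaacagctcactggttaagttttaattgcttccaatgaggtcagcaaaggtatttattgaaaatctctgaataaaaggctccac
Fgf10: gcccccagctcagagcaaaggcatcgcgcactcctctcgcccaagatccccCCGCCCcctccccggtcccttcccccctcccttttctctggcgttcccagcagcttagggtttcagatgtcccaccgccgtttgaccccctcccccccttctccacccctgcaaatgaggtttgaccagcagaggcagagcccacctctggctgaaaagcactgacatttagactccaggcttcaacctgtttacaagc
Hgf: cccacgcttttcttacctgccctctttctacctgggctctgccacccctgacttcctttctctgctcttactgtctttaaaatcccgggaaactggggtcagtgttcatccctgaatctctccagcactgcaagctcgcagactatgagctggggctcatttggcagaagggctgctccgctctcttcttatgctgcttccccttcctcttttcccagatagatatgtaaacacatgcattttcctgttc
Met: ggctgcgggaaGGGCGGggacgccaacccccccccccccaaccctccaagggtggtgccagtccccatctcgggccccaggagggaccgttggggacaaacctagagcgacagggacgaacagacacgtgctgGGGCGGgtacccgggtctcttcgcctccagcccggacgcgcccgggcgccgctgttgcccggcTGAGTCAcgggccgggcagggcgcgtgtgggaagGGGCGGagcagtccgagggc

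The Met window held 3 GC boxes, whose first bases lay 239, 117 and 20 bases before the start, and 1 AP-1 match 54 bases before it. The Fgf10 window held 1 GC box, read on the minus strand, 199 bases before the start. The Fgf7 and Hgf windows held no match to the 7 motifs. Among 32851 RefSeq promoter windows of the same length, 32.7% held a GC box, 6.75% the AP-1 match, 12.4% the TATA box, 1.55% the CRE, 7.02% the GAS element, 9.56% the C/EBP site and 12.6% the TEAD site. GC content was 74.0% in the Met window, 61.2% for Fgf10, 50.8% for Hgf and 43.6% for Fgf7. The Fgf10 window precedes a start that lies 44908 bases inside the GENCODE gene, so it belongs to 1 of the annotated starts only, and the Met start lies 157 bases from the GENCODE start.

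All 9 genes are protein coding. In GENCODE M21 (GRCm38), Fgf7 spans chr2:126034658-126091185, Fgf10 chr13:118669791-118792115, Hgf chr5:16553495-16620152, Fgf2 chr3:37348346-37410108, Fgfr1 chr8:25513654-25575718 and Met chr6:17463800-17573980, all on the plus strand. Fgf1 at chr18:38838673-38929472, Fgf18 at chr11:33117430-33147400 and Fgfr2 at chr7:130162451-133123350 lie on the minus strand. Counts cover the exons of a whole gene, so the epithelial and mesenchymal splice forms of Fgfr2 cannot be told apart. Of the exonic bases of Fgf2, 9.4% overlap the antisense gene Nudt6 and 3.8% a gene model on the same strand. For Hgf the overlap was 6.7%, with a same-strand gene model, and for Fgfr2 it was 3.0%, with Ctbp2. Antisense gene models overlap 2.7% of the exonic bases of Fgf10 and 1.7% of those of Fgfr1. The strand setting of the counting is not given in the sources used here, so these counts are uncertain by the reads that fall there.

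The libraries held 9725723 to 14585349 counts. The fibroblast markers Col1a1, Col1a2, Col3a1, Dcn, Lum, Thy1, Vim, Pdgfra, Pdgfrb and Fap were all detected, and 9 of the 10 passed the test as higher in CD26+ than in CD26- NFs kept in control medium. Their sum was 16534 to 18495 CPM in CD26- control and 9816 to 21491 CPM in CD26- CM libraries, where 4 of 10 were higher and 2 lower with CM. It was 62532 to 79515 CPM in CD26+ control and 29198 to 52139 CPM in CD26+ CM libraries. The list moved both ways with CM there too, with 5 of 10 lower and 3 higher, among them Dcn, whose mean was 390 CPM in control and 3566 CPM in CM libraries. Dpp4, which encodes CD26, was close to absent in control medium at 0 to 0.171 CPM (read counts scaled to a common library size) in CD26- and 0 to 0.0809 CPM in CD26+ libraries, so it does not separate the labeled cell types there, and it reached 0.715 to 7.80 CPM in CD26+ CM libraries against 0.0776 to 0.881 CPM in CD26- CM libraries. The summed level of 17 epithelial marker genes was 4730 to 5262 CPM in CD26- control, 2936 to 4840 CPM in CD26- CM, 796 to 1427 CPM in CD26+ control and 702 to 1672 CPM in CD26+ CM libraries. In CD26+ NFs, 13 of the 16 epithelial markers tested were lower without CM and 14 with it. Skeletal muscle markers summed to 19.3 to 112 CPM in CD26- CM libraries and to at most 4.74 CPM elsewhere. Adipocyte markers summed to 175 to 198 CPM in CD26- control and 233 to 534 CPM in CD26- CM libraries. In the CD26+ groups the sums were 733 to 805 CPM and 1210 to 1769 CPM, so CM and control libraries did not overlap in either cell type. Most of this sum was Lpl, with means of 157 and 298 CPM in CD26- and 713 and 1344 CPM in CD26+ NFs. With CM, 1 of 5 tested adipocyte markers was higher and 0 lower in CD26- NFs, and 2 were higher and 1 lower in CD26+ NFs. Pericyte markers summed to 160 to 173 CPM in CD26- control, 56.9 to 109 CPM in CD26- CM, 59.0 to 77.9 CPM in CD26+ control and 59.4 to 98.4 CPM in CD26+ CM libraries. The mean of the epithelial markers was entered as a covariate in the comparisons of groups below. The part of the other lists in the results was not tested. Immune markers reached at most 54.9 CPM and endothelial markers 9.16 CPM in any library. No list had a marker at 0 counts in every library. In bulk RNA, fewer cells of a type and less RNA per cell cannot be told apart, which bears on each comparison of CD26+ with CD26- NFs below.

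On a scale of CPM per kilobase of exon, which allows genes to be compared, the 9 genes covered a wide range. In CD26- control libraries Fgf2 was highest at 60.7 ± 1.27 (SD, n = 3) CPM per kilobase, followed by Fgf7 at 41.6 ± 2.1 and Fgfr1 at 37.7 ± 1.82. Met stood at 20.5 ± 2.26, Fgf18 at 10.7 ± 1.02, Fgf10 at 10.1 ± 0.537 and Hgf at 8.18 ± 0.0225 CPM per kilobase. Fgfr2 was far below Fgfr1 at 1.66 ± 0.0704 CPM per kilobase, and Fgf1 was lowest at 0.330 ± 0.137. The libraries of neighbors in this order overlapped for Fgf7 with Fgfr1 and for Fgf18 with Fgf10.

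The order changed with cell type and medium. In CD26+ control libraries Fgf7 led at 60.9 ± 3.99 (SD, n = 3) CPM per kilobase, ahead of Fgfr1 at 49.5 ± 2.01 and Fgf2 at 37.3 ± 1.92, and Hgf at 22.5 ± 0.648 stood above Fgf10 at 18.4 ± 0.142 with no overlap between neighbors. Met stood at 3.21 ± 0.732 CPM per kilobase, above only Fgfr2 and Fgf1. In CD26+ CM libraries Fgf7 reached 113 ± 8.71 (SD, n = 6) CPM per kilobase, the highest value of the 9 genes in any group, and in CD26- CM libraries it led at 69.2 ± 10.5 (SD, n = 6), there overlapping Fgf2 at 47.3 ± 12.1. Among all tested genes, the mean Fgf7 level lay at percentile 93.1 in CD26- control and 97.7 in CD26+ CM libraries, and Fgfr1 between 91.8 and 94.8 over the 4 groups. Fgfr2 lay between 24.5 and 33.2 and Fgf1 between 2.80 and 9.38.

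**Figure D1:**
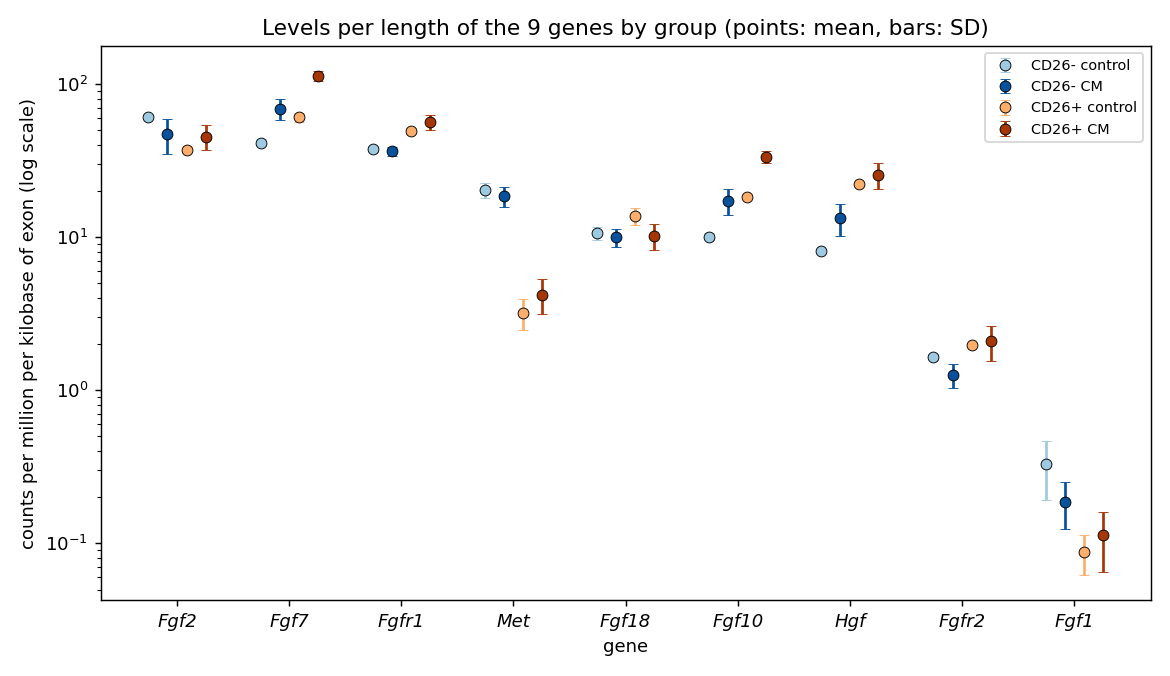
Mean level of each gene (x axis) in CPM per kilobase of exon on a log scale (y axis), with SD bars, for CD26- control (n = 3), CD26- CM (n = 6), CD26+ control (n = 3) and CD26+ CM (n = 6) libraries. Fgf7, Fgf2 and Fgfr1 hold the top 3 ranks in all 4 groups, Fgf1 is lowest, and Met separates the CD26- from the CD26+ groups.

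The first question was whether CM from tumor cells changed these genes in CD26- NFs. The mesenchymal ligand genes Fgf7, Fgf10 and Hgf were higher with CM, and no member was called lower. An edgeR quasi-likelihood F test over 14273 genes, with Benjamini-Hochberg adjustment and a call at an adjusted p below 0.05, called these 3 of the 9 genes. The background over all tested genes was 7.88% called upward and 7.28% called downward. Control and CM libraries did not overlap for 3 of the 9 members, as held for 20.3% of all tested genes. Fgf7, a growth factor for epithelial cells, was measured at 127.5, 140.4 and 137.7 CPM in control libraries and at 176 to 276 CPM, with a median of 224, in the 6 CM libraries. The groups did not overlap, and the log2 fold change was 0.73 ± 0.11 (SE, adjusted p = 0.000362). Fgf10, its close relative, was measured at 46.8, 48.8 and 43.9 CPM in control libraries and at 65.6 to 102 CPM, with a median of 71.8, with CM. Again every CM library lay above every control library, with a log2 fold change of 0.78 ± 0.12 (SE, adjusted p = 0.000736).

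Hgf was almost identical across the CD26- control libraries, at 58.7, 58.7 and 59.0 CPM. With CM it ranged from 53.7 to 119 CPM with a median of 101, and 5 of the 6 libraries lay above control while the culture given 13-MCB-44 CM lay below. The log2 fold change was 0.70 ± 0.19 (SE, adjusted p = 0.0199). This call was lost when any of the 3 control libraries was left out, with adjusted p from 0.0626 to 0.0801 and log2 fold changes that stayed at 0.70 to 0.71, and when the mean of the epithelial markers was added as a covariate (log2 fold change 0.41, adjusted p = 0.0931).

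The remaining members did not pass the test in CD26- NFs. Fgf2, a broadly acting FGF, was measured at 402, 416 and 417 CPM in control libraries and at 219 to 445 CPM, median 304, with CM, and 5 of 6 CM libraries lay below control (log2 fold change -0.36 ± 0.17, SE, adjusted p = 0.169). Fgfr2 was measured at 16.6, 17.9 and 16.9 CPM in control and at 10.7 to 16.3 CPM, median 12.7, with CM, without overlap (-0.39 ± 0.18, adjusted p = 0.137). Without CD26- CM replicate 9 Fgf2 passed (-0.47, adjusted p = 0.0439). Fgf1 counts were low at 8 to 25 reads a library (-0.77 ± 0.33, adjusted p = 0.125). It passed the filter on low counts mainly through its CD26- libraries, with 14 to 25 reads in control, and a gene kept through the group where it is high tends to differ, so each of its calls is given as a description. With the CM line as a block, Fgf1 (-0.82, adjusted p = 0.0492), Fgf2 (-0.40, adjusted p = 0.000431) and Fgfr2 (-0.41, adjusted p = 0.00362) were also called, which brought the count from 3 to 6, while the share of all tested genes called rose to 26.5%. Fgfr1, the main FGF receptor of fibroblasts, stood at 372 ± 18.0 (SD, n = 3) CPM in control and 361 ± 24.8 (SD, n = 6) CPM with CM. Values for Met were 157 ± 17.4 and 143 ± 20.8 CPM, and for Fgf18 they were 12.7 ± 1.21 and 11.9 ± 1.60 CPM. The skeletal muscle markers rose in the same cultures, with 7 of 7 tested markers higher, and their part in these results was not tested.

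**Figure D2:**
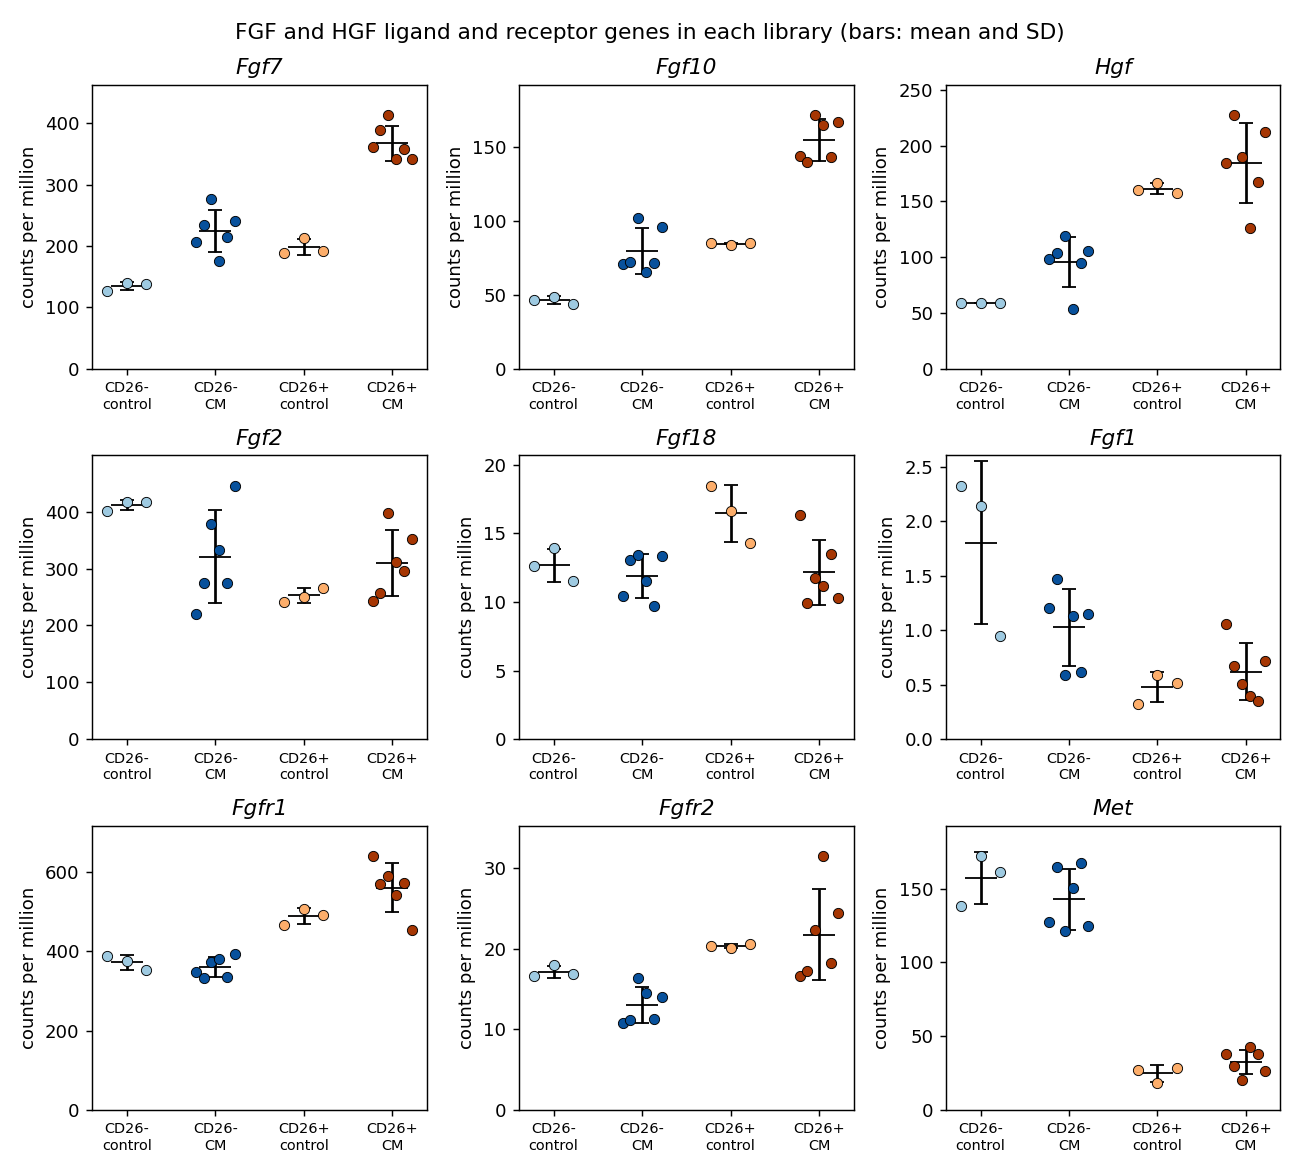
CPM of each of the 9 genes (y axis, from 0) in every library of the 4 groups (x axis); points are libraries, horizontal bars means and vertical bars SD (n = 3 for control, n = 6 for CM). Fgf7 and Fgf10 lie higher with CM in both cell types, Hgf spreads from 53.7 to 119 CPM with CM in CD26- NFs, and Met in CD26+ libraries does not exceed 42.6 CPM.

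The same question was asked of CD26+ NFs, where Fgf7 and Fgf10 were again higher with CM and Fgf18 was lower. This made 3 of 9 genes called, against a background of 15.2% called upward and 13.4% called downward. Control and CM libraries did not overlap for 2 of the 9 members, as held for 25.3% of all tested genes. Fgf7 was measured at 189, 213 and 192 CPM in control libraries and at 342 to 413 CPM, median 360, with CM. The gap between the groups was wide, and the log2 fold change was 0.89 ± 0.11 (SE, adjusted p = 1.04e-05). Fgf10 was measured at 85.3, 84.0 and 84.7 CPM in control and at 139 to 171 CPM, median 154, with CM (log2 fold change 0.87 ± 0.12, SE, adjusted p = 5.50e-05). Here too all 6 CM libraries lay above the controls. Fgf18 was measured at 18.5, 16.6 and 14.3 CPM in control and at 9.90 to 16.3 CPM, median 11.5, with CM, and the groups overlapped through the culture given 13-MCB-17 CM (log2 fold change -0.44 ± 0.14, SE, adjusted p = 0.0297). That call was lost without control replicate 10 (-0.35, adjusted p = 0.147), without control replicate 11 (adjusted p = 0.0798), without CM replicate 14 (adjusted p = 0.0593), with the epithelial markers as a covariate (-0.40, adjusted p = 0.0592) and in a fit of these 2 groups alone (adjusted p = 0.0630).

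Hgf, which was called higher with CM in CD26- NFs, was measured in CD26+ NFs at 160.5, 167 and 157 CPM in control and at 126 to 227 CPM, median 187, with CM. The groups overlapped and the log2 fold change was 0.19 ± 0.18 (SE, adjusted p = 0.463). Met was measured at 27.2, 18.2 and 28.6 CPM in control and at 20.4 to 42.6 CPM with CM (0.40 ± 0.20, adjusted p = 0.146). Leaving out 1 library gave 0.21 to 0.51, the lowest without control replicate 11 (adjusted p = 0.539). It passed the test without CM replicate 15 (0.49, adjusted p = 0.0469) and with the epithelial markers as a covariate (0.55, adjusted p = 0.0225). Fgfr1 stood at 489 ± 19.8 (SD, n = 3) CPM in control and 561 ± 61.6 (SD, n = 6) CPM with CM, with a log2 fold change of 0.20 ± 0.08 (adjusted p = 0.0786) that passed without CM replicate 18 (0.25, adjusted p = 0.00605). Fgf2 averaged 253 ± 13.0 CPM in control and 309 ± 58.1 CPM with CM, a difference that was called, among all alternatives run, only with the line as a block (0.27, adjusted p = 0.00504, against 0.237 without it). Fgfr2 was at 20.3 ± 0.278 and 21.7 ± 5.67 CPM and Fgf1 at 4 to 14 reads a library, and neither was called. In neither cell type did any member pass the study's limit of a log2 fold change over 2 or under -2, which 0.904% of tested genes passed in CD26- NFs and 2.01% in CD26+ NFs.

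The next comparison set CD26+ against CD26- NFs in control medium. Hgf, Fgf10, Fgf7 and Fgfr1 were higher in CD26+ NFs and Met, Fgf1 and Fgf2 were lower, so that 7 of the 9 genes were called, and in all 9 the libraries of the 2 cell types did not overlap, as held for 64.7% of all tested genes. A large part of the transcriptome differed between the CD26+ and CD26- control libraries. Of tested genes, 25.0% passed with higher values in CD26+ NFs and 25.4% with lower ones. Hgf at 157 to 167 CPM in CD26+ and 58.7 to 59.0 CPM in CD26- control libraries had a log2 fold change of 1.46 ± 0.22 (SE, adjusted p = 2.37e-05), or 2.75-fold. Fgf10 was 1.82-fold higher (log2 0.87 ± 0.14, adjusted p = 5.64e-05), Fgf7 1.46-fold (0.55 ± 0.12, adjusted p = 0.000845) and Fgfr1 1.31-fold (0.39 ± 0.09, adjusted p = 0.00199). Met, the HGF receptor gene, was measured at 138, 172 and 161 CPM in CD26- and at 27.2, 18.2 and 28.6 CPM in CD26+ libraries. This gave a log2 fold change of -2.67 ± 0.23 (SE, adjusted p = 7.73e-08), and Met was the only member past the log2 limit of 2, which 5.97% of tested genes passed.

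Fgf2 was lower in CD26+ NFs by the same test, at 241 to 267 CPM against 402 to 417 CPM (log2 fold change -0.70 ± 0.20, SE, adjusted p = 0.00769). Fgf1 was lower as well (-1.84 ± 0.44, adjusted p = 0.00199), on 4 to 8 reads in CD26+ and 14 to 25 reads in CD26- libraries. For the reason given above, this call is a description. Fgf18 (0.38 ± 0.17, adjusted p = 0.0694) and Fgfr2 (0.25 ± 0.20, adjusted p = 0.317) were not called, although both were called in a fit of the 2 control groups alone, with adjusted p of 0.0152 and 0.0160. Fgf18 also passed without CD26+ control replicate 12 (0.48, adjusted p = 0.0474) and without CD26+ CM replicate 13 (0.39, adjusted p = 0.0317). The line as a block also gave an adjusted p of 0.0470 for Fgfr2.

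The epithelial markers differed between the cell types in the same direction as Met and opposite to Hgf. When the mean of these markers was entered as a covariate, Met kept its call in control medium (log2 fold change -1.84, adjusted p = 0.00177), as did Fgf10 (0.78, adjusted p = 0.0481). The other 5 calls were lost, which left 2 of 7, and over all tested genes the share called in both directions was 13.2% in this fit. The fold change shrank for Hgf (0.43, adjusted p = 0.289) and Fgf7 (0.11, adjusted p = 0.734). It was larger in size than without the covariate for Fgf1 (-2.37, adjusted p = 0.0846, against -1.84). It was about as large for Fgf2 (-0.63, adjusted p = 0.295) and Fgfr1 (0.41, adjusted p = 0.138). The part of the epithelial markers in the Hgf and Fgf7 differences cannot be told apart from that of cell type.

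**Figure D3:**
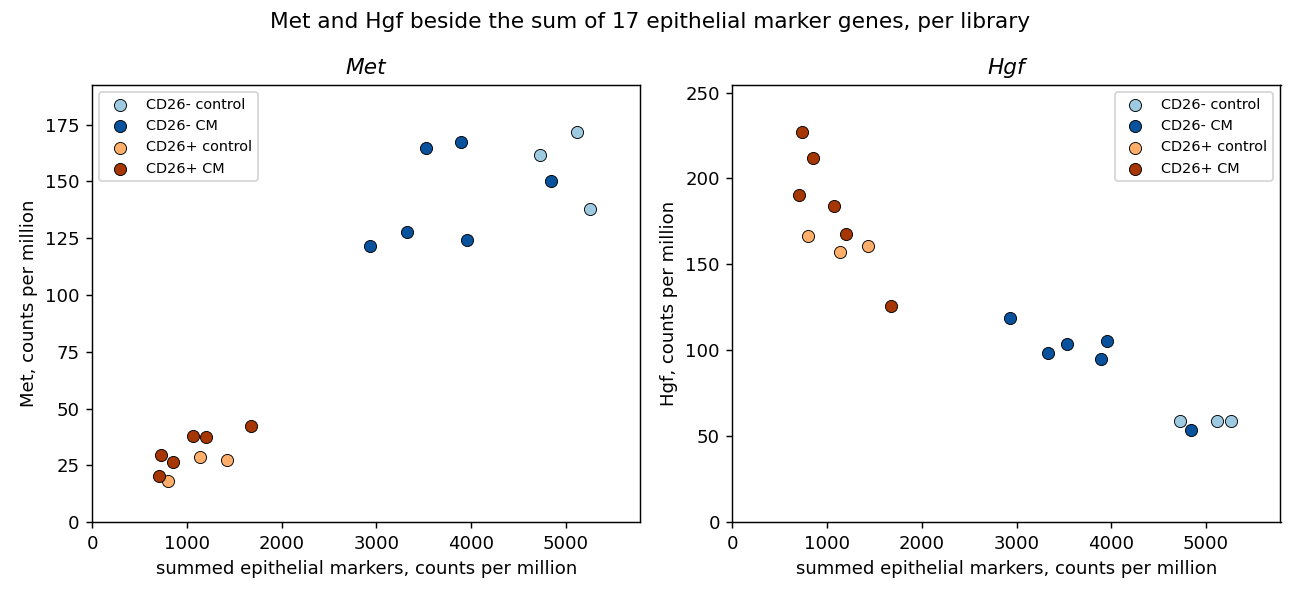
CPM of Met (left) and Hgf (right), each on the y axis, against the summed CPM of 17 epithelial marker genes (x axis); each point is 1 of 18 libraries, colored by group. CD26- libraries lie at 2936 to 5262 CPM of epithelial markers with Met at 122 to 172 CPM, and CD26+ libraries at 702 to 1672 CPM with Met at 18.2 to 42.6 CPM.

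In tumor CM, CD26+ NFs had higher Fgf7, Fgf10, Hgf, Fgfr1 and Fgfr2 and lower Met than CD26- NFs. These 6 genes were called, and the libraries of the 2 cell types did not overlap for any of them. Of all tested genes, 29.3% passed upward, the same share, 29.3%, downward, and 31.7% did not overlap. Fgf10 was 1.95-fold higher in CD26+ NFs (log2 0.96 ± 0.10, SE, adjusted p = 1.97e-07) and Fgf7 1.64-fold (0.71 ± 0.08, adjusted p = 1.07e-06). Hgf was 1.93-fold higher (0.95 ± 0.15, adjusted p = 3.21e-05), and Fgfr1 was 1.55-fold higher (0.64 ± 0.07, adjusted p = 3.27e-07). Fgfr2 at 16.6 to 31.5 CPM in CD26+ and 10.7 to 16.3 CPM in CD26- CM libraries was 1.67-fold higher (0.74 ± 0.14, adjusted p = 0.000255). Met was measured at 20.4 to 42.6 CPM, median 33.6, in CD26+ and at 122 to 167 CPM, median 139, in CD26- CM libraries. The log2 fold change was -2.14 ± 0.16 (SE, adjusted p = 6.08e-09), and Met was again the only member past the log2 limit, with 4.16% of tested genes.

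Within each of the 6 CM lines the direction was the same for these 6 genes. This follows from the lack of overlap and adds no separate support. The ratio of the CD26+ to the CD26- library given the same CM ran from 0.168 to 0.298 for Met, from 1.60 to 2.34 for Hgf, from 1.68 to 2.51 for Fgf10 and from 1.42 to 1.95 for Fgf7. With the epithelial markers as a covariate, Met (-1.37, adjusted p = 0.00455), Fgf10 (0.88, adjusted p = 0.0113), Fgfr1 (0.65, adjusted p = 0.00998) and Fgfr2 (1.20, adjusted p = 0.00965) kept their calls, in a fit that called 13.5% of all tested genes. Fgf7 lost its call (0.31, adjusted p = 0.168), and Hgf turned to -0.0079 (adjusted p = 0.988). Fgf2, which had differed by cell type without CM, was at 321 ± 81.9 (SD, n = 6) CPM in CD26- and 309 ± 58.1 (SD, n = 6) CPM in CD26+ NFs with CM (log2 fold change -0.05 ± 0.14, adjusted p = 0.766). Fgf18 was at 11.9 ± 1.60 and 12.1 ± 2.39 CPM. Fgf1 had a log2 fold change of -0.71 ± 0.32 (adjusted p = 0.0675), which passed with the line as a block (-0.73, adjusted p = 0.0405). It also passed without CD26- control replicate 3, without CD26- CM replicate 6 or 8 and without CD26+ CM replicate 13, with adjusted p from 0.0222 to 0.0436.

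**Figure D4:**
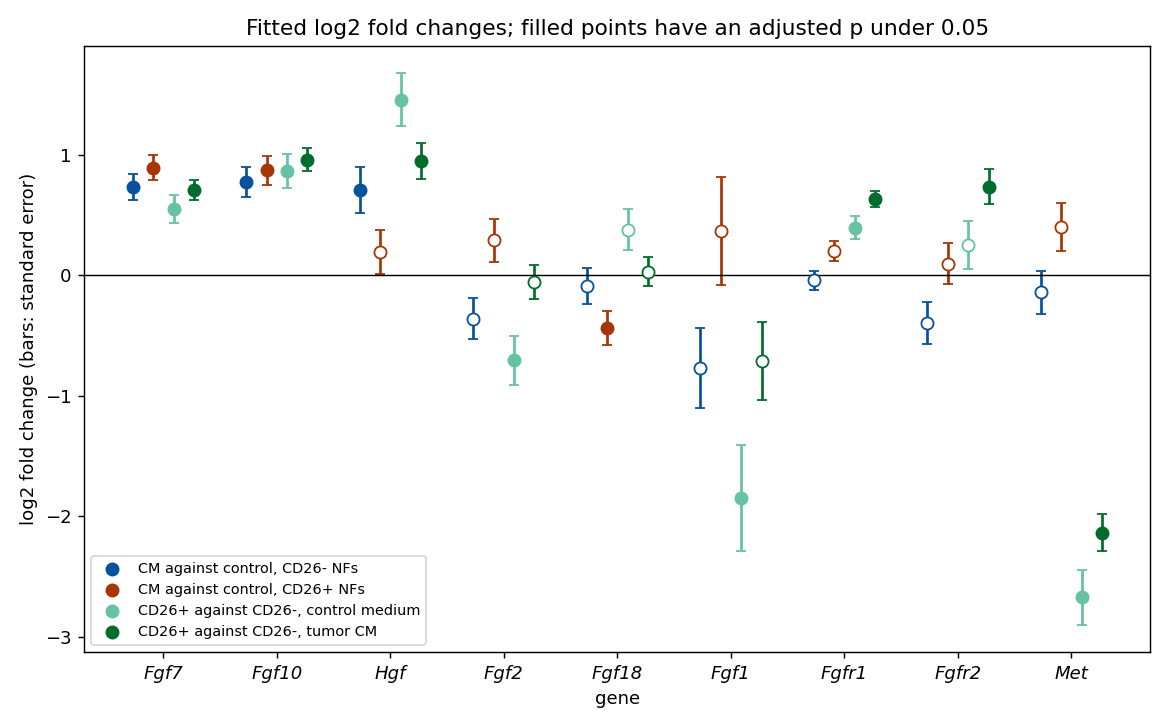
Fitted log2 fold change (y axis; bars are SE) of each of the 9 genes (x axis) in 4 comparisons; filled points have an adjusted p below 0.05 and open points do not. Fgf7 and Fgf10 are filled and positive in all 4 comparisons, Hgf in 3, and Met is filled and negative, at -2.67 and -2.14, in both comparisons of cell type.

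Whether CM acted differently in the 2 cell types was tested with the difference between their CM effects. No member passed (edgeR quasi-likelihood test), 1 had an unadjusted p under 0.05, as 25.2% of all tested genes did, and DESeq2 likewise called 0 of 9. Of all tested genes, 4.53% had a CM effect called higher in CD26+ NFs, 3.01% lower, and 0.392% passed with the log2 limit. The difference was 0.16 ± 0.14 (SE, log2, adjusted p = 0.524) for Fgf7 and 0.09 ± 0.17 (adjusted p = 0.780) for Fgf10. Fgf2, which with CM was below the control mean in 5 of 6 CD26- cultures and above it in 5 of 6 CD26+ cultures, had the smallest p (0.65 ± 0.25, unadjusted p = 0.0175, adjusted p = 0.109).

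With the CM line as a block, 3 differences passed, in a fit that called 17.6% of all tested genes. They were Fgf2 (0.67, adjusted p = 0.000608), Fgfr2 (0.48, adjusted p = 0.0186) and Hgf (-0.50, adjusted p = 0.00436, against -0.51 ± 0.26, SE, and 0.230 without the block). In that fit the CM effect on Fgf2 was -0.40 in CD26- and 0.27 in CD26+ NFs, that on Fgfr2 was -0.41 and 0.06, and the difference for Hgf was negative. The Hgf difference also passed without CD26- CM replicate 7, the culture given 13-MCB-44 CM (-0.63, adjusted p = 0.0397), that of Fgf2 without CD26- CM replicate 9 (0.77, adjusted p = 0.0412), and that of Fgfr1 without CD26+ CM replicate 18 (0.29, adjusted p = 0.0350).

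The last comparison asked whether the 6 tumor lines differed in what their CM did. In a model of cell type and line over the 12 CM libraries, Fgf2 (adjusted p = 0.0142) and Hgf (adjusted p = 0.0155) differed by line, 2 of 9 genes where 6.28% of tested genes did. An unadjusted p under 0.05 was found for 6 members and for 22.0% of all tested genes. Each line was used once per cell type, so a line effect here is a difference that both cell types share.

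Fgf2 was lowest with 13-MCB-17 CM in both cell types, at 219 CPM in CD26- and 242 CPM in CD26+ NFs. It was highest with 13-MCB-138 CM in CD26- NFs, at 445 CPM, and with 18-MCB-12 CM in CD26+ NFs, at 397 CPM, and these 2 lines held the top 2 ranks in both cell types. The highest library was 2.03 times the lowest in CD26- and 1.64 times in CD26+ NFs. Hgf was lowest with 13-MCB-44 CM in both cell types, at 53.7 CPM in CD26- and 126 CPM in CD26+ NFs, which was 0.915 and 0.779 times the control mean. With the other 5 lines Hgf lay above the control mean in both cell types, up to 2.02 times with 18-MCB-12 CM in CD26- NFs and up to 1.41 times with 10-SJK-221 CM in CD26+ NFs. The line difference of Hgf rested on 13-MCB-44, since its adjusted p was 0.369 without that line. The cultures given 13-MCB-44 CM also had the highest epithelial marker sums among CM libraries, 4840 CPM in CD26- and 1672 CPM in CD26+ NFs, and the part of these in the Hgf level was not tested.

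Fgf7 and Fgf10 were above the control mean with 6 of 6 lines in both cell types. This follows from the lack of overlap between their CM and control libraries. Ratios to the control mean ran from 1.30 to 2.04 for Fgf7 and from 1.41 to 2.20 for Fgf10 in CD26- NFs, and from 1.73 to 2.09 and from 1.65 to 2.02 in CD26+ NFs. Both genes were highest with 18-MCB-12 CM in both cell types, and in CD26- NFs both were lowest with 13-MCB-44 CM. Their line tests gave adjusted p of 0.156 and 0.154, and without 13-MCB-138 Fgf7 passed (adjusted p = 0.0339). Without a filter on low counts both passed (adjusted p = 0.00792 and 0.00326). Fgfr2 was highest with 13-MCB-44 CM in CD26+ NFs at 31.5 CPM and lowest with 13-MCB-17 CM in both cell types (adjusted p = 0.0571, with 0.00972 in DESeq2 and 0.0291 without 13-MCB-138). Met was highest with 13-MCB-44 CM in CD26+ NFs, at 42.6 CPM, and lowest with 18-MCB-12 CM in both cell types, at 122 and 20.4 CPM (adjusted p = 0.204). Fgf1 (adjusted p = 0.292), Fgf18 (adjusted p = 0.957) and Fgfr1 (adjusted p = 0.894) were not called.

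**Figure D5:**
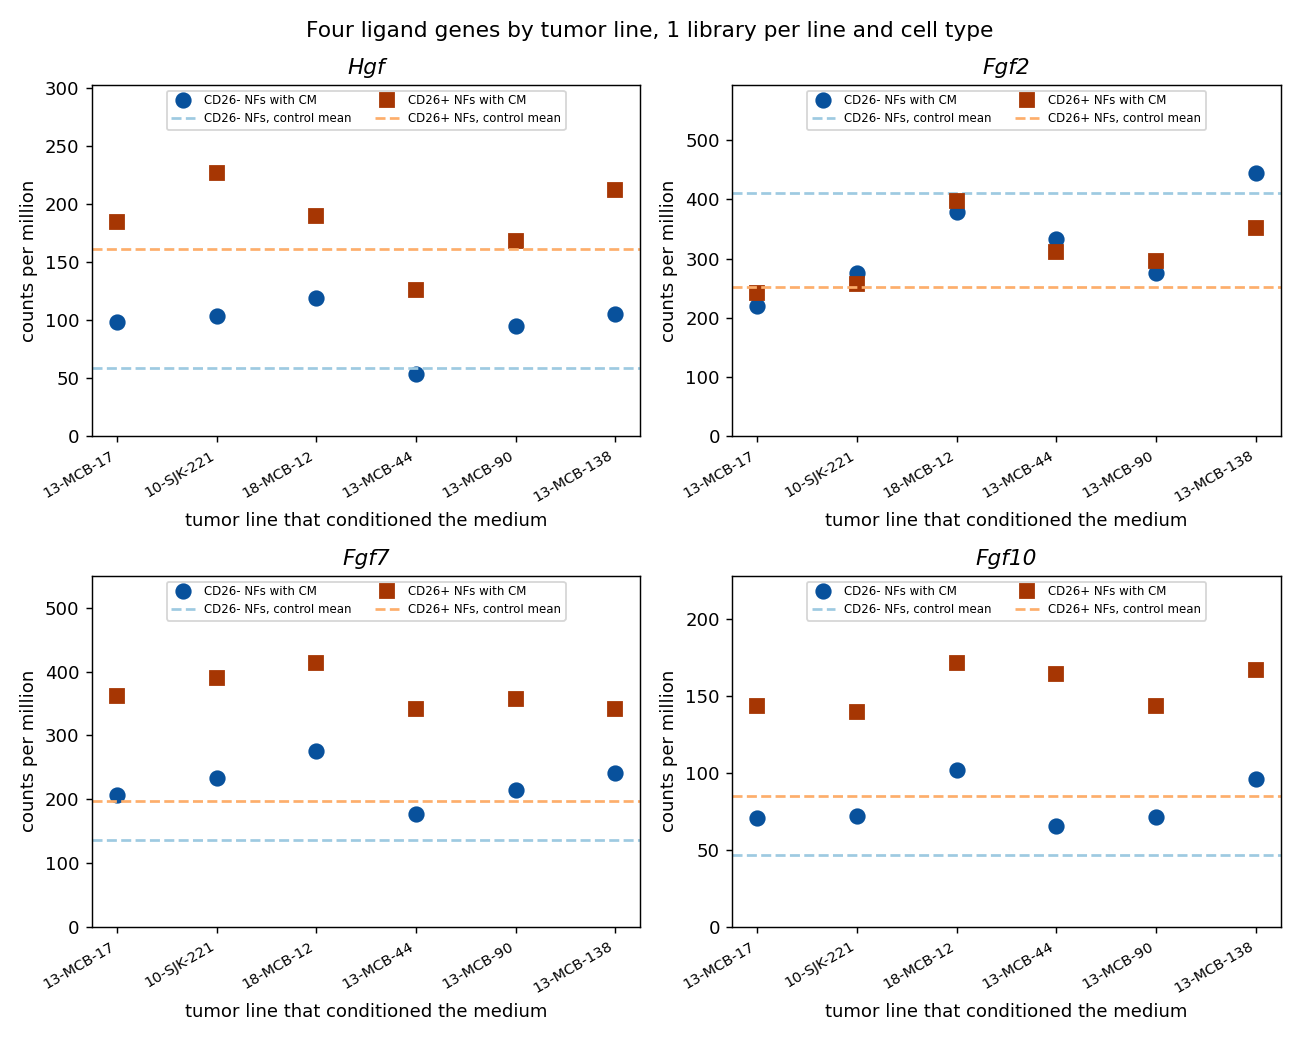
CPM (y axis, from 0) of Hgf, Fgf2, Fgf7 and Fgf10 by the tumor line that conditioned the medium (x axis), 1 library per line and cell type, so there are no error bars; dashed lines are the control means of each cell type (n = 3). Hgf lies below both control means with 13-MCB-44 CM, at 53.7 and 126 CPM, and Fgf7 and Fgf10 lie above their control means with every line.

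The other genes of these pathways were counted in 6 lists of 84 genes, of which 64 were tested. The shares over all tested genes with which these counts are to be read were 7.88% higher and 7.28% lower with CM in CD26- NFs, and 15.2% higher and 13.4% lower in CD26+ NFs. In the receptor adaptor list, 8 of 11 genes were higher with CM in CD26+ NFs and none lower, against 1 higher and 1 lower in CD26- NFs, and the difference in CM effect passed the test for 1 of the 11, Ptpn11, a call that was lost in 5 of 18 fits without 1 library. Ptpn11, which encodes the phosphatase SHP2 downstream of these receptors, went from 357 ± 7.28 (SD, n = 3) to 423 ± 15.9 (SD, n = 6) CPM in CD26+ NFs (log2 fold change 0.24 ± 0.04, SE, adjusted p = 0.000505). The list's median log2 fold change was 0.15 in CD26+ and -0.02 in CD26- NFs, where the median over all tested genes was -0.0040 and 0.0052. Of 17 FGF and ERK response and feedback genes, 4 were higher and 0 lower with CM in CD26- NFs, and 6 were higher and 2 lower in CD26+ NFs. Spry4, a feedback inhibitor of receptor tyrosine kinases, was higher with CM in both cell types (0.73 ± 0.18, adjusted p = 0.0105, and 0.80 ± 0.18, adjusted p = 0.00336). In CD26- NFs its call was lost without control replicate 1 (adjusted p = 0.0601) or 3 (adjusted p = 0.0523), while the log2 fold change stayed at 0.66 to 0.81 in the fits without 1 library. Spry2 was higher in CD26- NFs (0.55 ± 0.09, adjusted p = 0.00101), with 0.18 ± 0.09 (adjusted p = 0.141) in CD26+ NFs. Dusp6, an ERK phosphatase, was higher in CD26+ NFs (0.48 ± 0.11, adjusted p = 0.00345), with 0.25 ± 0.11 (adjusted p = 0.116) in CD26- NFs. The FGF-responsive transcription factor genes Etv4 and Etv5 were not called with CM in either cell type.

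Of the 3 tested genes among other FGF receptors and co-receptors, 1 was higher and 1 lower with CM in CD26- NFs, and 0 were higher and 1 lower in CD26+ NFs. Fgfrl1, which encodes a receptor without the kinase domain and is named here after its values were seen, was at 33.9 ± 0.775 (SD, n = 3) CPM in control and 26.1 ± 3.99 (SD, n = 6) CPM with CM in CD26- NFs (-0.37 ± 0.12, SE, adjusted p = 0.0433). In CD26+ NFs it was at 42.3 ± 0.443 and 37.4 ± 5.79 CPM (adjusted p = 0.280). Fgfr3 was at 14.3 ± 1.79 (SD, n = 3) CPM in CD26+ control libraries and fell to 3.11 ± 1.91 (SD, n = 6) CPM with CM (log2 fold change -2.22 ± 0.28, SE, adjusted p = 1.75e-05). In CD26- NFs Fgfr3 was at 3.03 ± 0.102 and 1.73 ± 0.334 CPM (-0.81 ± 0.35, adjusted p = 0.125). Its difference in CM effect was not called (-1.40 ± 0.45, adjusted p = 0.0646). Fgfr4, at 2 to 23 reads a library, was higher with CM in CD26- NFs (2.03 ± 0.46, adjusted p = 0.00688), and this call was lost without control replicate 3 (1.64, adjusted p = 0.0665). Like Fgf1, it passed the filter on low counts mainly through the group where it is high, so its call is given as a description. Among the heparan sulfate genes, which shape FGF and HGF binding at the cell surface, 1 of 20 was higher and 5 lower with CM in CD26- NFs, and 5 were higher and 3 lower in CD26+ NFs. Glce, an epimerase of heparan sulfate chains, was lower with CM in both (-0.43 ± 0.06, adjusted p = 0.000348, and -0.52 ± 0.06, adjusted p = 1.04e-05). The core protein gene Sdc3 was lower in both as well (-0.57 ± 0.12, adjusted p = 0.00460, and -0.51 ± 0.12, adjusted p = 0.00379). Sdc4 rose from 345 ± 17.0 to 612 ± 60.1 CPM with CM in CD26+ NFs (0.83 ± 0.08, adjusted p = 9.78e-07), more than in CD26- NFs (0.23 ± 0.07, adjusted p = 0.0436, difference 0.60 ± 0.10, adjusted p = 0.00427). The call in CD26- NFs was lost with the epithelial covariate (0.24, adjusted p = 0.101) and in 14 of 18 fits without 1 library (adjusted p up to 0.146), whereas the difference kept its call in all 18.

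The list of HGF activation and inhibition, which also holds the MET paralog, contained 8 tested genes, and without CM 5 were lower and 1 higher in CD26+ than in CD26- NFs, whereas with CM 6 were lower and 1 higher. Of all tested genes, 25.4% were lower and 25.0% higher without CM, and 29.3% each way with CM. The median log2 fold change was -1.60 and -1.75. St14, the membrane protease matriptase that cuts HGF, was at 109 ± 7.52 (SD, n = 3) CPM in CD26- and 21.9 ± 9.37 (SD, n = 3) CPM in CD26+ control libraries (-2.33 ± 0.30, adjusted p = 5.28e-06). Its inhibitors Spint1 (-2.36 ± 0.29, adjusted p = 2.88e-06) and Spint2 (-2.26 ± 0.29, adjusted p = 4.96e-06) were lower in CD26+ NFs too. These 3 genes moved with the epithelial markers, and with those as a covariate none was called, at adjusted p of 0.0743, 0.0814 and 0.0502. Plau, the urokinase gene, was lower in CD26+ than in CD26- NFs without CM (-0.82 ± 0.14, adjusted p = 7.36e-05), a call that was lost with the covariate (-0.28, adjusted p = 0.374). With CM it was lower by more (-1.35 ± 0.10, adjusted p = 5.62e-09), and there it kept its call with the covariate (-0.85, adjusted p = 0.00373). Plat, the tissue plasminogen activator gene, was higher in CD26+ than in CD26- NFs without CM (1.15 ± 0.15, adjusted p = 7.04e-06). It was higher with CM too (1.71 ± 0.11, adjusted p = 1.62e-09), and its difference in CM effect was not called (adjusted p = 0.0706). Mst1r, which encodes the MET paralog RON, was higher with CM in both cell types, from 3.77 ± 0.310 to 7.99 ± 1.33 CPM in CD26- (1.08 ± 0.19, adjusted p = 0.00161) and from 2.63 ± 0.428 to 9.36 ± 1.94 CPM in CD26+ NFs (1.83 ± 0.20, adjusted p = 5.08e-06).

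Cell type was compared in the other lists too, to be read against the same shares of all tested genes. Of the 11 receptor adaptor genes, 2 were higher and 5 lower in CD26+ NFs without CM, and with CM 3 were higher and 0 lower. Of the 17 response and feedback genes, without CM 6 were higher and 8 lower in CD26+ NFs, and with CM 3 were higher and 7 lower. Etv4 (-0.87 ± 0.10, adjusted p = 1.52e-06) and Dusp6 (-0.80 ± 0.12, adjusted p = 4.27e-05) were lower in CD26+ control libraries, and Etv5 was higher (0.42 ± 0.10, adjusted p = 0.00210). With the epithelial covariate Etv5 lost its call (0.27, adjusted p = 0.359). Of 20 heparan sulfate genes, without CM 6 were higher and 3 lower in CD26+ NFs, and with CM 15 were higher and 1 lower. With CM these were led by the glypican gene Gpc3 at 58.6 ± 6.08 (SD, n = 6) CPM against 11.0 ± 3.94 (SD, n = 6) CPM (2.42 ± 0.17, adjusted p = 4.13e-09). Gpc3 was higher without CM too (1.55 ± 0.24, adjusted p = 3.75e-05), and its difference in CM effect was not called (adjusted p = 0.0740). Of the 5 tested genes among other FGF ligands and binding proteins, 3 were lower and 0 higher in CD26+ NFs without CM, and with CM 2 were higher and 2 lower. Among the 3 tested other FGF receptors and co-receptors, 1 was higher and 0 lower in CD26+ NFs without CM, and 2 and 0 with CM. Fgfr3 was higher without CM (2.24 ± 0.34, adjusted p = 3.26e-05) and with CM (0.84 ± 0.29, adjusted p = 0.0195). It lost both calls with the epithelial covariate (adjusted p = 0.0890 and 0.678). By line, 11 of the 64 genes differed, where 6.28% of all tested genes did, led by Sulf1, which encodes an enzyme that removes sulfate from heparan sulfate (adjusted p = 0.000462). Sulf1 was lower with CM, from 215 ± 1.55 (SD, n = 3) to 104 ± 42.4 (SD, n = 6) CPM in CD26- NFs (adjusted p = 0.0372) and from 294 ± 21.5 to 119 ± 57.7 CPM in CD26+ NFs (adjusted p = 0.00589). The call in CD26- NFs was lost with the epithelial covariate (-0.96, adjusted p = 0.127) and in 7 of 18 fits without 1 library (adjusted p from 0.0528 to 0.113).

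For each member, the genes with the most similar profile were sought over the 18 libraries by Pearson's r of log2 CPM among 10604 genes. Because the libraries fall into 4 groups, r mainly describes shared group differences. The most similar to Fgf7 were Il1rap (r = 0.987), Adamts9 (0.986) and Irak3 (0.972), and to Fgf10 they were Dram1 (0.972), Cntn1 (0.970) and C1qtnf7 (0.969). Hgf was followed by Gjc1 (0.984), Nrn1 (0.979) and Lclat1 (0.978). For Met they were Dock9 (0.992), Gprc5a (0.991) and Wwc1 (0.991), and for Fgfr1 Col5a3 (0.973), Ptpn1 (0.971) and Tug1 (0.970). Fgfr2 was nearest to Tmem119 (0.925), Igfbp7 (0.921) and Tmem59 (0.919), and Fgf2 to Col4a2 (0.875), Tmeff1 (0.875) and Cmah (0.874). Fgf1 (Ap3m1 at 0.833, Ap1b1 at 0.828 and Smug1 at 0.820) and Fgf18 (Ss18l2 at 0.768, Plscr3 at 0.712 and 2410006H16Rik at 0.697) had no profile as close.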

How the data were processed

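Total RNA of 18 NF cultures was sequenced from stranded TruSeq libraries. The deposited table holds raw read counts per Ensembl gene. The authors aligned reads to GRCm38 with HISAT2 2.1.0 and counted them with HTSeq, whose version, annotation release and strand setting are not given in the sources used here. Part of the tumor model's genotype is not reported here. The members and gene lists were chosen with earlier results of these data known.

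Of 55486 genes, 14273 passed edgeR's filter by group (minimum count 10, minimum total 15). One row without a gene name held 0 counts. TMM-scaled counts of all 18 libraries were fitted in 1 model with 4 groups (edgeR 4.0.16 in R 4.3.3, quasi-likelihood F tests, Benjamini-Hochberg adjustment over all tested genes). Common dispersion gave a biological coefficient of variation of 0.117. The SE of a log2 fold change was its size divided by the square root of F. Lines were tested over the 12 CM libraries with cell type as a covariate. CPM values used the total counts scaled by TMM, and CPM per kilobase the exon lengths of GENCODE M21, which may not be the authors' annotation. The scripts were tested on simulated counts. Every pair of replicates differed by more than sampling noise (chi-square per degree of freedom of at least 3.22).

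Libraries given CM of the same line deviated together from their group means (r from 0.247 to 0.406 in all 6 pairs), so the labels' lines pair the CM libraries, and the line was used as a block in an alternative. Results were also recomputed with DESeq2 1.42.0, with upper-quartile or RLE scaling, without a filter or with a minimum of 1 CPM, with fold limits, fits of single group pairs, each library or line left out, and the mean of the epithelial markers as a covariate. Named pathway genes were the 3 with the smallest p in each direction in a comparison, plus 12 HGF- and FGF-related genes.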

Additional observations from a re-analysis of the deposited data

Results flagged for a closer look

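Hgf in CD26- CM replicate 7, the culture given 13-MCB-44 CM, was 53.7 CPM and lay far below the other 5 CM libraries of CD26- NFs (gap over range 0.632, critical value 0.625). It was the only such sample in 18 groups of 6 checked. Chance alone flags about 1 in 20 such groups, so 1 flag in 18 is near what chance gives. Without this library, picked for its low value, the log2 CM effect on Hgf in CD26- NFs was 0.83 (adjusted p = 0.000740).

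The CM effect differed between the cell types, by the test of the difference itself, for 5 of the 64 other pathway genes tested (7.81%), where 4.53% of all tested genes passed upward and 3.01% downward, so this share is near the background. On the log2 scale it was higher in CD26+ NFs by 0.60 for Sdc4, 0.57 for Spred2 (an inhibitor of Ras-ERK signaling; adjusted p = 0.0412) and 0.24 for Ptpn11 (adjusted p = 0.0247). For Spry3, a relative of Spry2, the difference was -1.30 (adjusted p = 0.0112), from 2.28 ± 0.625 (SD, n = 3) to 3.10 ± 0.653 (SD, n = 6) CPM in CD26- and from 13.4 ± 0.339 to 7.49 ± 1.56 CPM in CD26+ NFs. For the transcription factor gene Etv1 it was -0.95 (adjusted p = 0.0495), from 6.98 ± 1.02 to 7.34 ± 1.87 CPM and from 13.3 ± 0.314 to 7.28 ± 1.70 CPM. Fits without 1 library lost the call in 13 of 18 cases for Spred2, 13 for Etv1 and 5 for Ptpn11, with adjusted p of at most 0.118, and in none for Sdc4 and Spry3.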

How the results depend on the processing

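Of 1254 refits of single members under the alternatives, 1196 kept the direction and the side of the threshold, 31 passed only under the alternative, 16 lost the call and 11 changed sign. The line as a replicate block, where CM libraries are paired by line, moved the count of members called from 3 to 6 for CM in CD26- NFs, where it called 26.5% of all tested genes (7.88% higher and 7.28% lower without it), and from 0 to 3 for the difference in CM effect, where it called 17.6% (4.53% and 3.01% without it). It changed the call of Fgf1, Fgf2, Fgfr2 and Hgf where given above and of no other member. The epithelial covariate moved the count from 7 to 2 for cell type in control medium, where it called 13.2% of all tested genes (25.0% higher and 25.4% lower without it). A log2 limit of 1 left 0, 0, 3 and 1 members for CM in CD26-, CM in CD26+, cell type in control and cell type in tumor CM, where 3.53%, 6.68%, 17.0% and 14.3% of all tested genes passed, and a limit of 2 left 0, 0, 1 and 1. Without a filter on low counts, 6 members differed by line instead of 2, as did 7.89% of all genes in that fit. The added members were Fgf7, Fgf10, Fgfr2 and Met. Leaving out 1 library or line gave 2 to 4, 2 to 4, 7 to 8 and 6 to 7 called members in these 4 comparisons, 0 to 1 for the difference and 1 to 4 for line. In these fits the share of all tested genes called ran from 5.82% to 19.3%, 19.3% to 34.9%, 42.7% to 52.4% and 55.3% to 59.3%, from 2.46% to 16.5% for the difference and from 3.01% to 10.2% for line, so 1 library or line moved it by over 1.5 times for CM in CD26- NFs (lowest without CD26- control replicate 3), the difference (lowest without CD26+ control replicate 11, highest without CD26+ CM replicate 18) and line (lowest without 13-MCB-44, highest without 13-MCB-138). The cause of these shifts was not tested. With the epithelial covariate the sign turned for Met for CM in CD26- NFs (0.0836), Hgf for CM in CD26+ NFs (-0.0316), and Fgf2 (0.0131) and Hgf (-0.0079) for cell type in tumor CM. Hgf was called there without the covariate (0.95), as was Egr1, which is no member (0.40, against -0.0093 with it). Leaving out 1 replicate also turned signs, with ranges of -0.0541 to 0.154 for Fgfr2 (CM in CD26+ NFs), -0.143 to 0.0613 for Fgf2 and -0.0811 to 0.0804 for Fgf18 (cell type in tumor CM). With 4 to 25 reads a library, Fgf1 limits how fine a difference can be seen.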
